A study of Mus musculus with 12 samples.

Results

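The genes described here were the 76 rows of the count tables whose symbols begin with Mrpl or Mrps followed by a digit, together with Gtpbp10, making 77 of the 23420 gene symbols listed. Of the 76, 47 carry an L and 29 an S in their symbol. By current structural assignments 49 belong to the large (39S) subunit and 26 to the small (28S) subunit, since Mrps30 and Mrps18a sit in the large subunit in spite of their names, and Mrps36 is not a structural subunit but a component of the 2-oxoglutarate dehydrogenase complex. The set was proposed with earlier results of these data known, and within it the ribosomal protein genes were taken by symbol, whatever their values. Gtpbp10 was chosen by its measured levels, because its change with genotype differed between the sexes in these same libraries, so its values are a description with no test.

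Livers were collected at Zeitgeber time (ZT) 10, during the light phase, from C57BL/6 mice of about 20 weeks of age and profiled with a QuantSeq 3′ mRNA approach. The 4 groups held 3 mice each: wild type females (WTF), Siah2 KO females (KOF), wild type males (WTM) and Siah2 KO males (KOM), where Siah2 encodes an E3 ubiquitin ligase. Homozygous wild type and Siah2 KO mice came from related lines founded by an intercross of heterozygotes, so genotype and line cannot be told apart. The study's question was whether loss of SIAH2 changes liver transcripts at this time of day, in each sex and in both.

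Mitochondria translate the few proteins encoded by their own genome, all of them subunits of the respiratory chain and ATP synthase, on a ribosome whose proteins are all made from nuclear genes and imported. Many of these proteins descend from bacterial ribosomal proteins and others are specific to mitochondria, and a set of GTPases, helicases and rRNA methyltransferases assembles them with the mitochondrial rRNAs. Gtpbp10 encodes a GTPase of the Obg family that acts late in maturation of the large subunit.

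The 250 bases before the annotated start are shown for Gtpbp10 and for Mrps14 and Mrpl33. With all mice, DESeq2 and not edgeR called Mrps14 and Mrpl33 for the difference between the sexes (2.78% of these genes, against 3.32% of all genes). The sequences are those of RefSeq on GRCm38.p6, 5′ to 3′ on the strand of the gene, with matches to any of the motifs searched in capitals. Gtpbp10 lies at chr5:5537454-5559541 on the minus strand (window chr5:5559542-5559791), Mrps14 at chr1:160195215-160201186 on the plus strand (window chr1:160194965-160195214) and Mrpl33 at chr5:31613951-31622644 on the plus strand (window chr5:31613701-31613950).
Gtpbp10: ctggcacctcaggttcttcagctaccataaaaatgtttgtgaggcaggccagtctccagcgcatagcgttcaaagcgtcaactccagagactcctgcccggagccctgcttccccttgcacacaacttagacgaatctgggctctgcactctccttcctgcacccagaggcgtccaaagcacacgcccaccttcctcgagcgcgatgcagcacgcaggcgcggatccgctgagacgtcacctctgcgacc
Mrps14: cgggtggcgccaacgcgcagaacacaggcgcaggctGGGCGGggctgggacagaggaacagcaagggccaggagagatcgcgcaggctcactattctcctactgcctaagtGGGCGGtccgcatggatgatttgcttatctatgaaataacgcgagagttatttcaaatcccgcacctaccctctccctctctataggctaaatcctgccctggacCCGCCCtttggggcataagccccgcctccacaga
Mrpl33: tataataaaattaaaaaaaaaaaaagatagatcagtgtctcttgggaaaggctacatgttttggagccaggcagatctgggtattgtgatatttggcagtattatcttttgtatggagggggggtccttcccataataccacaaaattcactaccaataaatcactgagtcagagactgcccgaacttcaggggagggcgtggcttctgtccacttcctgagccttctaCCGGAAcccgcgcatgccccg
RefSeq windows were matched for 68 of the 77 genes, giving 74 windows, and 7 short motifs were searched on both strands. The ETS core bound by GABPA (CCGGAA) was present in 36.5% of these windows and in 12.03% of all 32851 windows of the same length. A core of the NRF1 element (TGCGCA) was present in 23.0% against 6.43%, and a GC box (GGGCGG) in 48.6% against 32.7%. The YY1 core (GATGGCG) was found in 2.70% against 2.18%, the E-box (CACGTG) in 9.46% against 6.02%, the core of the REV-ERB/ROR element (TAGGTCA) in 1 of the 74 windows against 2.23%, and the D-box (TTANGTAA) in 0 of 74 against 2.06%. The median GC content was 58.4% for these windows and 52.4% for all windows. Gtpbp10 held no match to any of the 7 motifs, Mrps14 held 3 GC boxes and Mrpl33 held 1 ETS core. These are matches of letters and not sites shown to be bound.

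Levels of Gtpbp10 were lowest in wild type females. In CPM, which are counts relative to the library total after TMM scaling across all 12 libraries, the WTF mice had 7.6, 0.9 and 1.3, the KOF mice 15.96, 34.6 and 21.1, the WTM mice 19.1, 20.1 and 27.2, and the KOM mice 17.7, 10.4 and 10.1. Every KOF mouse was above every WTF mouse and every KOM mouse was below every WTM mouse, so the groups were apart in both sexes in opposite directions. Group means were 3.25 ± 3.75 CPM in WTF, 23.9 ± 9.64 in KOF, 22.2 ± 4.43 in WTM and 12.7 ± 4.31 in KOM (SD, n = 3 each). KOF and WTM overlapped, as did KOF and KOM, so in the order of levels only WTF stood below all the other groups. The 12 libraries held 481 counts of Gtpbp10 in all, so its lowest levels rest on few reads. Fitted by edgeR, KO against wild type came to 2.90 on the log2 scale for females and to -0.84 for males. Over the alternative settings that kept the gene these ranged from 2.43 to 4.39 and from -1.13 to -0.64. The highest of these, 4.39, came without WTF mouse 1089, the wild type female with 7.6 CPM. In females the filter of at least 10 counts in every library left Gtpbp10 out.

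**Figure D1:**
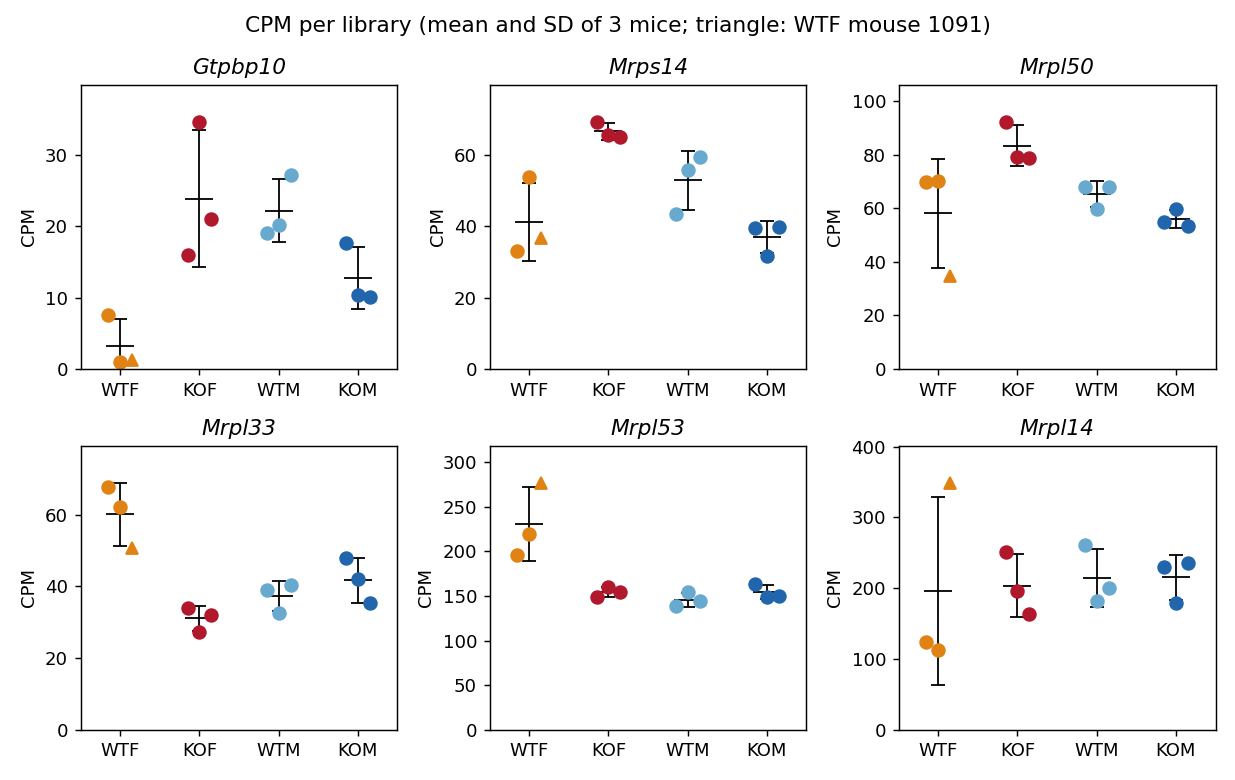
CPM of 6 genes by library, with groups on the horizontal axis, CPM on the vertical axis, points for mice, and the mean and SD of each group; the triangle is WTF mouse 1091. Gtpbp10 ranged from 0.9 to 7.6 CPM in WTF and from 15.96 to 34.6 in KOF, while Mrpl14 reached 349 CPM in mouse 1091 against 125 and 113 in the other wild type females.

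The libraries held 1293688 to 4056144 counts, of which 4833 to 14982 fell on the 76 ribosomal protein genes. The defining hepatocyte markers summed to 31248 to 47907 CPM, while adipocyte markers summed to at most 26.4 CPM and pancreatic acinar markers to at most 1.81 CPM. Macrophage markers (10 of 11 listed genes found) ranged from 379 to 865 CPM in KOF, 510 to 690 in WTF, 101 to 637 in WTM and 115 to 264 in KOM, and their part in the results below was not tested. Over all libraries, endothelial markers ranged from 210 to 372 CPM, stellate cell markers from 232 to 486, bile duct markers from 7.96 to 25.4, lymphocyte markers from 2.96 to 25.7 and red cell markers from 8.47 to 155. Red cell markers were higher in every male than in every female, and lymphocyte markers higher in every female (10.7 to 25.7) than in every male (2.96 to 6.88). Hepatocyte markers (41957 to 47907) and stellate cell markers (364 to 486) were higher in every WTF mouse than in every WTM mouse, where they reached at most 39427 and 358. Adipocyte markers were higher in every KOM mouse (3.47 to 26.4) than in every WTM mouse (at most 2.48). Of the markers listed, only 1 of 9 for red cells, 1 of 8 for lymphocytes and 0 of 5 for adipocytes passed the filter on low counts. The part of these markers in the sex and genotype comparisons was not tested. In bulk liver, fewer cells of a type and less RNA per cell cannot be told apart. Siah2 itself read 17.0, 12.3 and 11.5 CPM in WTF, 10.0, 12.5 and 9.6 in KOF, 16.8, 27.1 and 21.4 in WTM and 9.4, 17.4 and 15.03 in KOM. Reads come from the 3′ end of transcripts, and the sources used here do not place the Siah2 deletion relative to them, which means that these values check no genotype label.

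One library stood apart. WTF mouse 1091 was the highest of the 12 libraries for 27 of the 74 mitochondrial ribosomal protein genes that passed the filter on low counts, against 18.3% of all genes, and the lowest for 12 (16.2%), against 21.7%. Relative to the other WTF mice its log2 CPM was higher by a median of 0.24 for these genes, against a median of -0.10 for all genes. The deviation exceeded 2-fold upward for 7 genes (9.46%, against 7.49% of all genes) and downward for 7 (9.46%, against 14.7%). It was greatest for Mrps28, a small subunit protein, at 37.2 and 16.5 CPM in the other WTF mice and 1.0 CPM in mouse 1091. Across the 74 genes the deviation and the GC content of the last 500 transcript bases had a Pearson r of 0.39, against 0.37 across the 9171 genes with a value; genes of one library are not independent replicates. With an offset for GC content in edgeR, 0 of these genes were called in any comparison, as in the fit without it, and the median log2 fold change was 0.01 in females and 0.08 between wild type females and males. Fold changes of single genes printed here that moved by over 1.5 times without this mouse are given both ways.

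**Figure D2:**
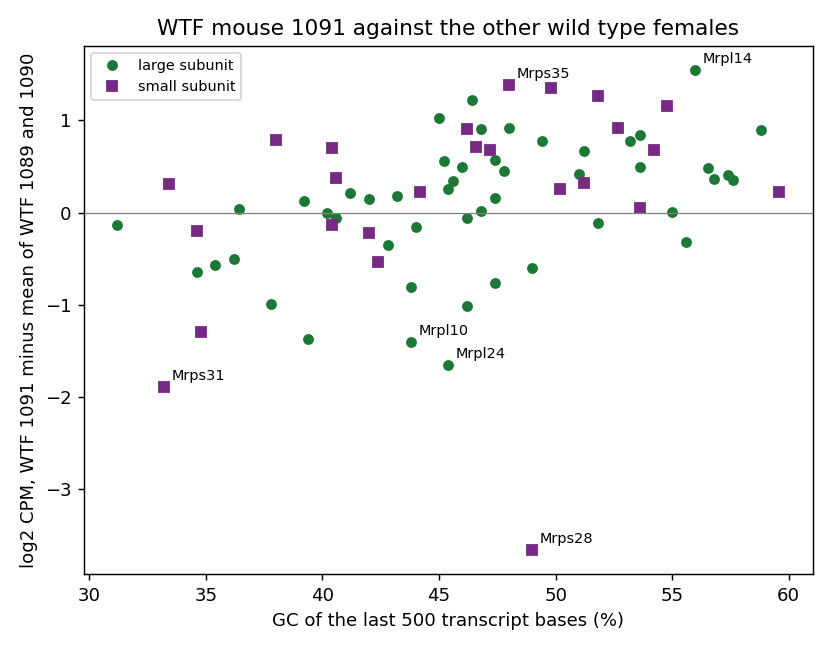
Each point is a mitochondrial ribosomal protein gene, with the GC content of the last 500 transcript bases (%) on the horizontal axis and the log2 CPM of WTF mouse 1091 minus the mean of the other 2 WTF mice on the vertical axis. Points spread on both sides of 0, with 7 genes over 2-fold above and 7 over 2-fold below, and Mrps28 lowest.

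The level of these genes in liver was moderate. The 76 genes had a median of 37.3 CPM over the 12 libraries, against 19.9 CPM for all 9806 genes that passed the filter. Because 1 read is counted per transcript near its 3′ end, these levels do not scale with transcript length. By mean level 7 genes were at 100 CPM or more, 50 at 20 to under 100, 12 at 10 to under 20 and 7 under 10. The highest was Mrpl12, which forms the stalk that recruits translation factors, at a mean of 313 CPM, followed by Mrpl14 (207), Mrpl53 (171), Mrpl51 (154) and Mrpl18 (127). Mrpl10, the base of the same stalk, was at 78.2 CPM, Mrps12 of the decoding centre at 68.1, Mrpl45, which lies by the exit tunnel and the inner membrane, at 38.9, and Mrpl3 of the peptidyl transferase region at 10.5.

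The 3 paralogs of bacterial S18 differed in level, with Mrps18c at 45.3 CPM, Mrps18a at 16.6 and Mrps18b at 1.2. Mrps18b, with 36 counts in all over 10 libraries, and Mrps36 (2.4 CPM) did not pass the filter. The lowest genes tested were Mrps27 (3.8 CPM), Mrpl24 (5.9) and Mrpl23 (7.7). Mrps30 of the large subunit was at 36.7 CPM and varied by a factor of 1.41 between its highest and lowest library. Most of the genes passing the filter moved within a narrow range in the 3 groups without mouse 1091, with a median SD of log2 CPM of 0.19 in KOF, 0.23 in WTM and 0.18 in KOM. The same SD over all genes was 0.27, 0.30 and 0.26. For the ribosomal protein genes in WTF the median SD was 0.36 with mouse 1091 and 0.16 for the other 2 mice. Over all genes these were 0.39 and 0.19. Whether the smaller SD of these genes goes with their higher level was not tested.

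Summed over the 76 genes, the level was 3367, 3591 and 4772 CPM in WTF, 3867, 3954 and 3564 in KOF, 3695, 3348 and 3570 in WTM, and 3679, 3265 and 3556 in KOM. All 4 groups overlapped in this sum. The means were 3910 ± 755, 3795 ± 205, 3538 ± 176 and 3500.1 ± 212 CPM (SD, n = 3 each). Without mouse 1091 the WTF mean was 3479 CPM (n = 2). The ratio of summed large to summed small subunit CPM was 2.66 ± 0.15 in WTF, 2.47 ± 0.06 in KOF, 2.49 ± 0.11 in WTM and 2.71 ± 0.10 in KOM, so that the order of the groups by genotype was opposite in the 2 sexes. The 3 KOM values (2.65, 2.83 and 2.67) were all above the 3 WTM values (2.61, 2.47 and 2.39), and the WTF values (2.76, 2.73 and 2.49) overlapped the KOF values (2.52, 2.48 and 2.41). The overlap in females came from mouse 1091 (2.49), and the other WTF ratios were above every KOF ratio.

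**Figure D3:**
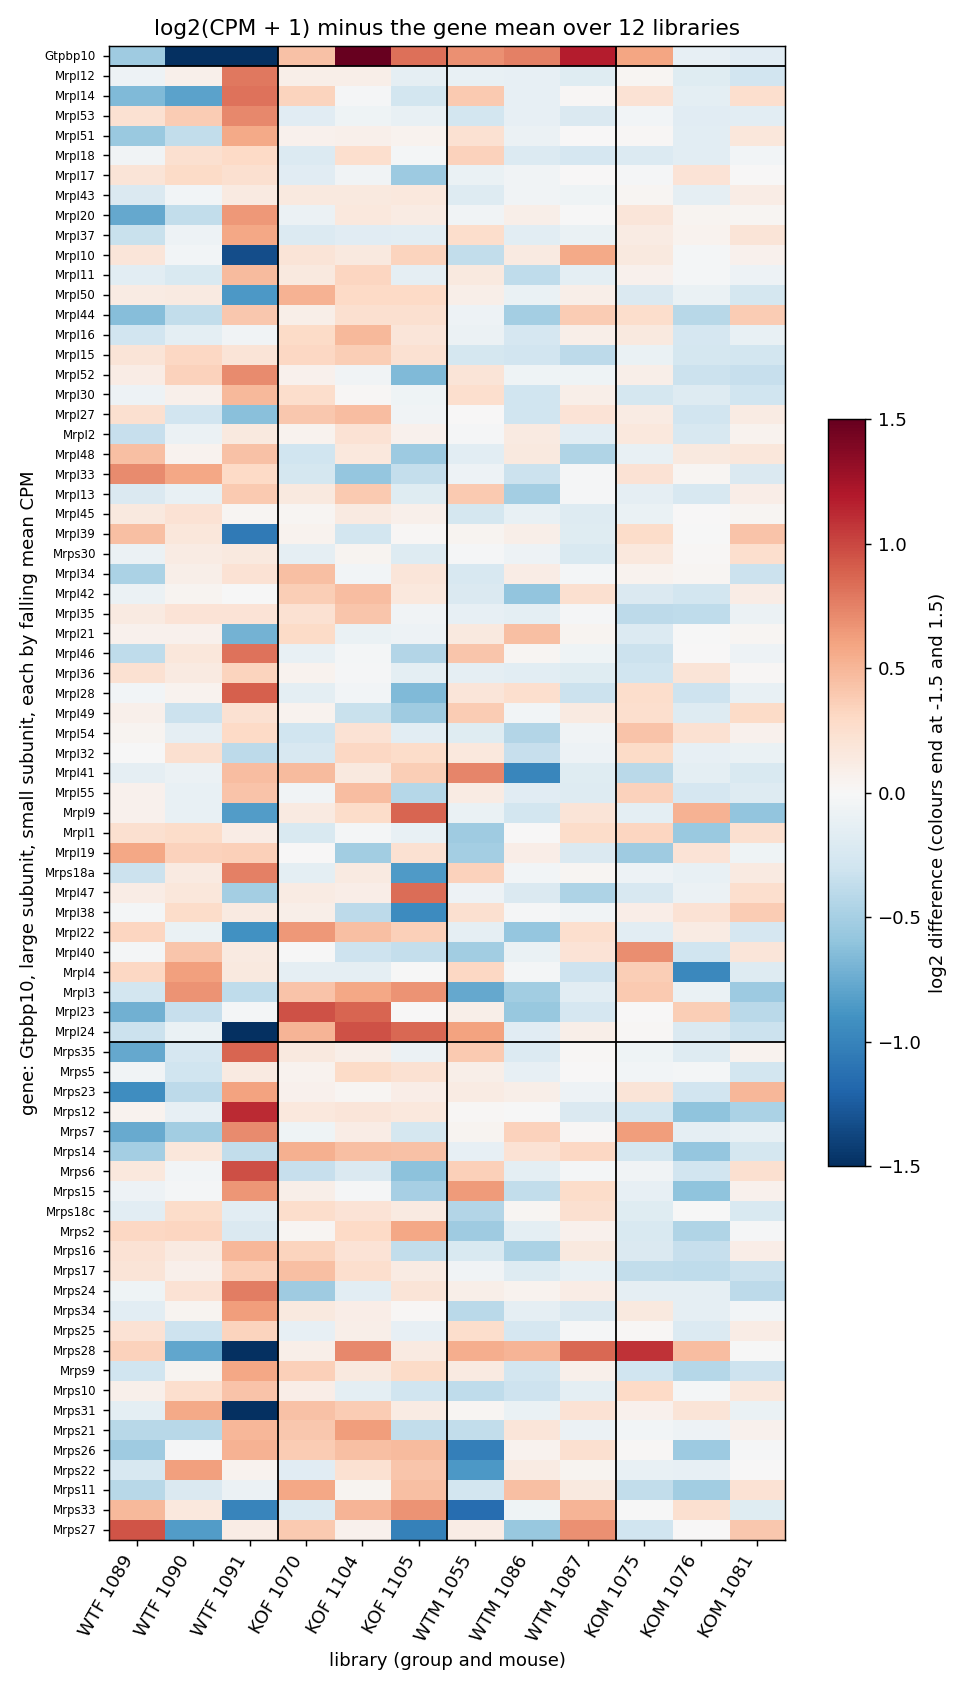
Rows are Gtpbp10 and the 74 mitochondrial ribosomal protein genes that passed the filter, ordered by subunit and falling mean, columns are libraries by group, and colour is log2(CPM + 1) minus the gene's mean. The column of WTF 1091 holds the highest value for 27 of the 74 genes and the lowest for 12.

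In females, Siah2 KO against wild type, 0 of the 74 genes tested reached a Benjamini-Hochberg adjusted p under 0.05 in edgeR's quasi-likelihood test, and neither did any of the 9465 genes tested (0%). At an unadjusted p under 0.05 there were 9 of the 74, against 15.6% of all genes. Of these, 4 were higher (7.3% of all genes) and 5 lower (8.31%). DESeq2 called 1 of 73 (Mrpl33), against 3.7% of all genes, and limma-voom called 0 (0%). Higher and lower levels were balanced, with 38 genes higher (47.3% of all genes were) and 36 lower, and a median log2 fold change of 0.03, against -0.03 for all genes. KOF and WTF did not overlap for 19 of the 74 genes (25.7%), against 23.3% of all genes. KOF was higher in 10 (11.4% of all genes) and lower in 9 (11.9%). The median log2 fold change was 0.02 for the large and 0.06 for the small subunit, 0.07 for the 46 proteins with a bacterial counterpart and -0.11 for the 28 mitochondria-specific ones.

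Mrpl33, a large subunit protein with a bacterial counterpart, had the most negative change of those averaging 10 CPM or more. It read 67.9, 62.1 and 50.6 CPM in WTF, and 34.1, 27.2 and 31.9 in KOF. The groups did not overlap, and the log2 fold change was -0.97 (SE 0.23), with adjusted p = 0.115 in edgeR and 0.0367 in DESeq2. Over the alternatives the adjusted p, from edgeR, DESeq2 or limma, ranged from 0.00408 to 0.393. Without mouse 1091 edgeR gave -1.06 (adjusted p = 0.00925).

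The next most negative were Mrps6, Mrpl28, Mrpl52 and Mrpl53. Mrps6 of the small subunit platform read 51.3, 44.4 and 90.1 CPM in WTF and 35.7, 39.0 and 29.5 in KOF, a log2 fold change of -0.84 (SE 0.30) by edgeR. Mrpl53, mitochondria-specific, read 196, 219 and 277 CPM in WTF and 149, 160 and 155 in KOF, at -0.59 (SE 0.22). For both genes every KOF mouse was below every WTF mouse. Mrpl52 was at -0.61, also with no overlap, and Mrpl28 at -0.65 with an overlap. None of these 4 passed edgeR or DESeq2, the smallest edgeR adjusted p being 0.216. Without mouse 1091 the log2 fold changes were -0.45 for Mrps6, -0.25 for Mrpl28, -0.41 for Mrpl52 and -0.43 for Mrpl53.

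The most positive changes among genes of that level were in Mrps28, Mrpl9, Mrpl22, Mrps14 and Mrpl50. Mrps14, of the small subunit head, read 33.2, 53.7 and 36.6 CPM in WTF and 69.3, 65.5 and 65.0 in KOF, with every KOF mouse above every WTF mouse. Its log2 fold change was 0.68 (SE 0.25, edgeR adjusted p = 0.221). Mrpl9 (0.71), Mrpl22 of the exit tunnel (0.69) and Mrpl50 (0.51) were also apart. Mrps28 was at 1.03, but the KOF mice (30.8, 48.6 and 31.9 CPM) overlapped the WTF mice (37.2, 16.5 and 1.0). Of the 3 lowest genes tested, Mrpl24 was at 4.0, 4.8 and 0.6 CPM in WTF and 7.8, 11.0 and 10.2 in KOF, and Mrpl23 at 4.0, 5.4 and 7.0 against 14.9, 14.0 and 7.2. None of these 7 genes passed edgeR, DESeq2 or limma-voom. Without mouse 1091 the log2 fold change was 0.49 for Mrps28, 0.47 for Mrpl9, 0.41 for Mrpl22, 0.61 for Mrps14 and 0.26 for Mrpl50. With no filter beyond 1 count, edgeR called Mrps28 and Mrpl24, against 2.82% of all genes.

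Without mouse 1091, 3 of the 74 genes passed edgeR (Mrpl14, Mrpl33 and Mrpl44), against 9.64% of all genes, and 19 had an unadjusted p under 0.05, against 26.6%. Mrpl44 was named after its values were seen, as it lay outside the rule for naming genes. Mrpl14 read 125, 113 and 349 CPM in WTF and 251, 197 and 164 in KOF, so that leaving out mouse 1091 turned overlapping groups into separate ones, at a log2 fold change of 0.78 (edgeR adjusted p = 0.0407). Mrpl44 read 36.5, 44.1 and 76.1 CPM in WTF and 60.6, 67.8 and 67.4 in KOF. It lies on chromosome 1 (79776018 to 79781445, plus strand) and shares 126 bases with Wdfy1 on the other strand, which read 11.9 ± 3.13 CPM in WTF and 38.4 ± 12.8 in KOF (SD, n = 3). Of the 77 genes 24 overlap another annotated gene, 17 of them a gene on the opposite strand, among them Mrpl14, which shares 622 bases with Tmem63b. For the Mrpl44 and Mrpl14 pairs the shared bases lie at the 5′ ends of both genes, whereas reads come from 3′ ends. Other pairs share 3′ ends or lie on the same strand. Mrpl24 shares 850 bases with Rrnad1 on the other strand, at the 3′ ends of both. Mrpl33 lies wholly within the noncoding gene Gm38424 on the same strand (8694 shared bases). Mrps6 shares 29138 bases with Slc5a3, also on the same strand. The sources used here do not state the strand setting of the counting. Whether reads of the overlapping pairs were separated was not tested.

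In males, edgeR's quasi-likelihood test called 0 of 73 (0% of all 8823 genes tested). DESeq2 called 0 (0.037%) and limma-voom called 0 (0%). In edgeR 1 had an unadjusted p under 0.05, against 4.05% of all genes, with 0 higher (1.62%) and 1 lower (2.43%). There were 33 higher (48.1% of all genes were) and 40 lower, and the median log2 fold change was -0.01 for these genes and for all genes. KOM and WTM were apart for 10 of the 73 (13.7%), against 8.87% of all genes, with 4 higher (4.45%) and 6 lower (4.42%). The smallest unadjusted p was that of Mrps14, at 43.6, 55.8 and 59.4 CPM in WTM and 39.6, 31.7 and 39.7 in KOM. Its groups did not overlap, and its log2 fold change was -0.54 (SE 0.20).

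Next came Mrps15 (-0.42, or -0.19 without WTM mouse 1055), Mrps12 (-0.39), Mrps9 (-0.35) and Mrps24 (-0.32), all small subunit genes, and the last 3 of these had no overlap. Mrps12 read 65.7, 64.8 and 55.7 CPM in WTM and 53.5, 42.5 and 46.6 in KOM. Of the 24 small subunit genes tested in males 17 were lower and 7 higher, with a median log2 fold change of -0.08, and of the 49 large subunit genes 23 were lower and 26 higher, with a median of 0.00. The most positive were Mrpl54 (0.46), Mrps10 (0.42), Mrpl40, Mrpl47 and Mrpl39. Mrpl54 read 20.6, 17.1 and 22.6 CPM in WTM and 32.0, 27.8 and 24.6 in KOM, and Mrps10 read 21.4, 22.6 and 25.4 against 35.1, 27.8 and 31.5. Both were apart. None of the 73 passed edgeR in males with any 1 mouse left out, against 0% to 0.0326% of all genes.

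**Figure D4:**
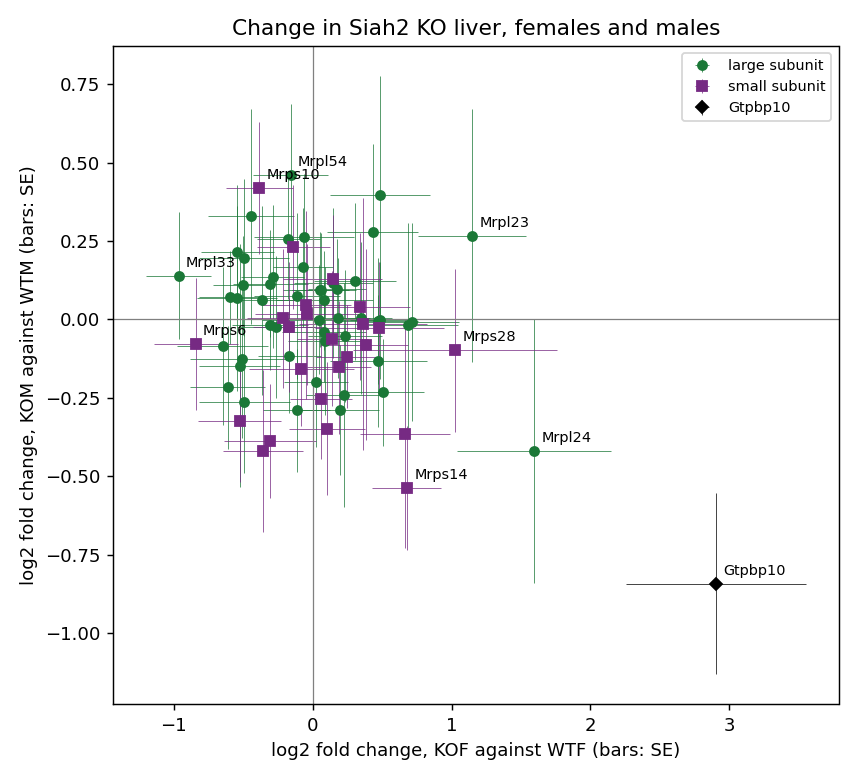
Log2 fold change in females (horizontal) and males (vertical) for the genes tested in both, with bars of 1 SE, circles for the large subunit, squares for the small subunit and a diamond for Gtpbp10. Gtpbp10 lies at 2.90 and -0.84, and Mrps14 at 0.68 and -0.54.

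The direction of change was the same in females and males for 28 of the 73 genes tested in both (38.4%), against 44.8% of all genes. The difference between the sexes (the log2 change of females less that of males) was tested in a fit of all 4 groups. Here edgeR's quasi-likelihood test called 0 of 74, against 0.255% of all 9806 genes, and 9 had an unadjusted p under 0.05, against 14.1%, with 4 positive (7.12%) and 5 negative (6.98%). Positive differences were seen for 40 of the 74, against 48.4% of all genes. DESeq2 called 2 of 72 (Mrps14 and Mrpl33), against 3.32%, and limma-voom called 0 (0.286%).

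For Mrps14 the difference was 1.21 (SE 0.31) on the log2 scale, with adjusted p = 0.102 in edgeR and 0.0179 in DESeq2. For Mrpl33 it was -1.10 (SE 0.30), with adjusted p = 0.109 in edgeR and 0.0310 in DESeq2. Mrpl33 read 39.0, 32.7 and 40.5 CPM in WTM and 47.9, 42.1 and 35.2 in KOM, so in males the groups overlapped. Without mouse 1091 both genes passed edgeR (adjusted p = 0.0358 for Mrps14 and 0.0210 for Mrpl33), against 5.15% of all genes, and 16 of the 74 had an unadjusted p under 0.05, against 20.1%. The next largest positive differences were Mrps28, Mrpl50 (0.74), Mrpl9 and Mrpl22, and the next largest negative ones were Mrps10 (-0.80), Mrpl40, Mrps6 (-0.75) and Mrpl48 (-0.75). Without mouse 1091 the differences were 0.49 for Mrpl50 and -0.37 for Mrps6, and Mrps28 went from 1.12 to 0.58, Mrpl9 from 0.71 to 0.49 and Mrpl22 from 0.70 to 0.43. Mrps14 was the only one of the 74 genes with KO mice above all wild type mice in females and below all in males, a pattern that 1.31% of all genes showed in one direction or the other. Mrpl50 showed it too when the library totals for scaling were taken over all rows of the table.

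With both sexes combined and no term for sex, edgeR's quasi-likelihood test called 0 of 73 (0.0111% of all genes). DESeq2 called 0 (0.0056%) and limma-voom called 0 (0%). In edgeR 5 had an unadjusted p under 0.05, against 5.65%, with 1 higher (2%) and 4 lower (3.66%). There were 38 higher (47.3% of all genes were) and 35 lower. Without mouse 1091 edgeR called 0 of 74 (0%) and 1 had an unadjusted p under 0.05, against 5.45%. The most positive changes were those of Mrpl3, Mrpl9 and Mrpl22 and the most negative those of Mrps6 (-0.48, or -0.26 without mouse 1091), Mrpl33 (-0.44) and Mrpl52 (-0.44). In every one of these 73 genes the 6 KO and 6 wild type mice overlapped, while of all genes 0.2% did not, 0.155% being higher and 0.0443% lower.

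The sexes were also compared within the wild type, in the same libraries that served as controls above. In edgeR's quasi-likelihood test 0 of the 74 genes passed, against 1.39% of all 9335 genes. DESeq2 called 0 (3.74%) and limma-voom called 0 (1.16%). At an unadjusted p under 0.05 there were 5, against 15.2% of all genes, all of them higher in females (8.4%) and 0 lower (6.85%). The largest were Mrpl33 (0.71, SE 0.24), Mrpl53 (0.70, SE 0.24) and Mrpl19 (0.67, SE 0.28), and the largest lower in females were Mrps28 (-1.34, SE 0.72), Mrpl10 (-0.41) and Mrpl21 (-0.36). Without mouse 1091 these last 3 were at -0.80, -0.10 and -0.16. Of the 74, 53 were higher in females (54.7% of all genes were) and 21 lower, with a median of 0.16 against 0.05 for all genes. The sexes were apart for 12 genes (16.2%), against 22.7% of all genes, with females higher in 11 (11.5%) and lower in 1 (11.2%), Mrps28. Without mouse 1091 the median was 0.02 and that of all genes 0.01, and 3 genes passed edgeR (Mrpl14, Mrpl33 and Mrps7), against 7.73%, and 12 had an unadjusted p under 0.05, against 24.7%. Mrps7, named after its values were seen, read 32.8, 39.0 and 93.0 CPM in WTF and 58.1, 71.9 and 56.9 in WTM.

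Other genes of mitochondrial translation were counted in lists written by role. In females and in males edgeR called 0 genes of these lists with all mice. Of 7 further mitoribosome proteins not named by the Mrp pattern, 6 were lower in KOF (47.3% of all genes were higher). Their median log2 fold change was -0.32, against -0.03 for all genes, and their smallest edgeR adjusted p was 0.398. Assembly and rRNA modification factors had a median of -0.25 in females (8 higher and 14 lower) and translation factors of -0.13 (6 higher and 8 lower). In males these 3 medians were -0.01, 0.02 and -0.15, against -0.01 for all genes. In wild type females against males, which uses the same WTF libraries, they were 0.45, 0.29 and 0.13, against 0.05. There 6 of the 7 further proteins were higher in females (54.7% of all genes were). Mitochondrial tRNA synthetases had a median of 0.14 in females and -0.10 in males, and factors of mitochondrial DNA and RNA of 0.07 and 0.10. Fastkd2 was at -0.93 (SE 0.27) and Oxa1l, which inserts proteins in the inner membrane, at -0.88 (SE 0.27), with edgeR adjusted p = 0.156 and 0.165. Without mouse 1091 these became 0.0419 and 0.0581, in a setting where edgeR called 9.64% of all genes. DESeq2 without that mouse gave adjusted p = 0.105 for Fastkd2 and 0.162 for Oxa1l.

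Iars2, the mitochondrial isoleucyl-tRNA synthetase, read 46.2, 23.4 and 4.8 CPM in WTF and 92.3, 103 and 89.1 in KOF. DESeq2 called it in females (adjusted p = 0.0123) and between the sexes (adjusted p = 0.0434), and edgeR did not. Ssbp1, which binds single-stranded mitochondrial DNA, read 103, 73.2 and 41.4 CPM in WTF and 192, 184 and 156 in KOF, with DESeq2 adjusted p = 0.00805 and edgeR adjusted p = 0.118 in females. For both genes mouse 1091 was the lowest of the 12 libraries. Without it the log2 fold change in females went from 1.93 to 1.46 for Iars2 (edgeR adjusted p = 0.00988) and from 1.28 to 1.01 for Ssbp1 (edgeR adjusted p = 0.0149). Between wild type females and males, without mouse 1091, Iars2 was lower in females at -1.73 (edgeR adjusted p = 0.00446). Ssbp1 in that comparison was at -0.81 (adjusted p = 0.0623 in edgeR and 0.0210 in DESeq2). For its difference between the sexes, also without mouse 1091, adjusted p was 0.0485 in edgeR and 0.0138 in DESeq2. In these settings edgeR called 7.73% and 5.15% of all genes, and DESeq2 10.4% and 9.58%. With all wild type mice, DESeq2 called 1 of 16 tRNA synthetases (6.25%) and 1 of 10 DNA and RNA factors (10%) between the sexes. Of all genes it called 3.74%. For respiratory chain and ATP synthase subunits the median was -0.02 in females and -0.07 in males, and for cytosolic ribosomal proteins -0.23 and -0.05, and edgeR called Rpl23a for the difference between the sexes (-1.43, adjusted p = 0.0474), against 0.255% of all genes. DESeq2 called 12 of 75 cytosolic ribosomal proteins in females (16%, against 3.7% of all genes) and 11 of 75 between the sexes (14.7%, against 3.32%). It called 3 of 75 respiratory chain and ATP synthase subunits in females (4%) and 4 of 74 between the sexes (5.41%). Of the transcripts encoded by mitochondrial DNA that were listed, 0 were found among the gene symbols, so they were not analysed.

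**Figure D5:**
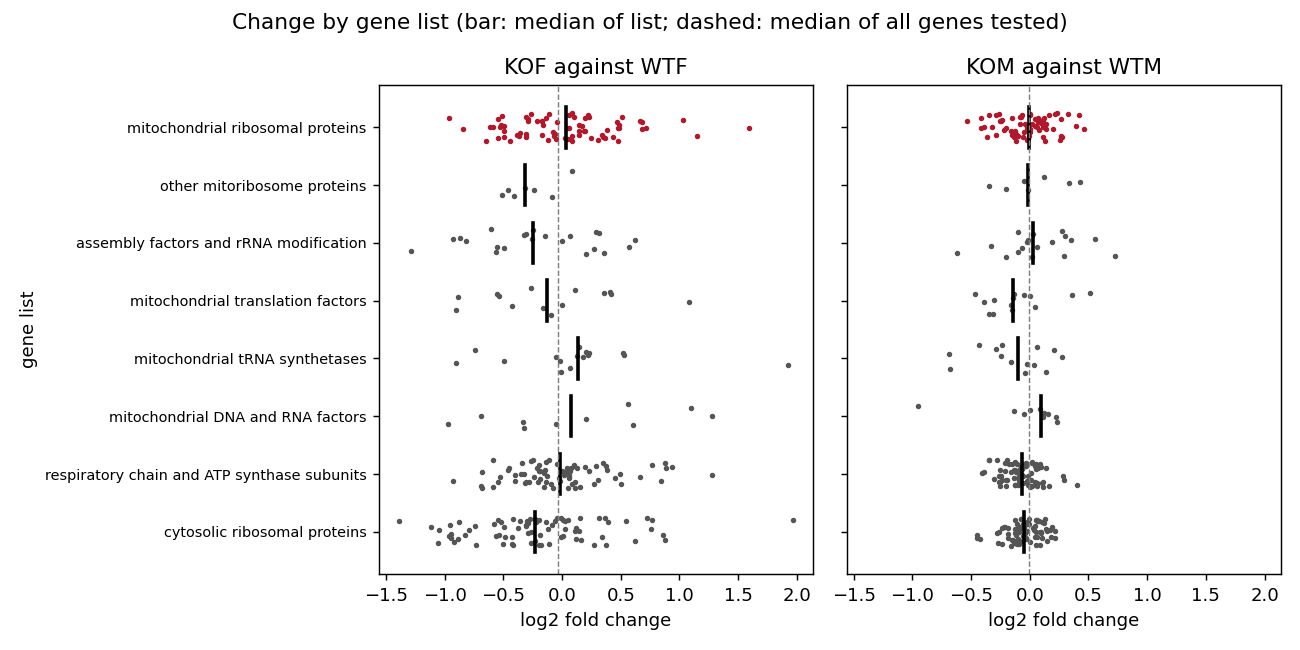
Log2 fold change of each gene tested (points) by gene list, KOF against WTF on the left and KOM against WTM on the right, with the median of each list as a bar and the median of all genes as a dashed line. The mitochondrial ribosomal proteins are centred at 0.03 in females and -0.01 in males, and the cytosolic ribosomal proteins at -0.23 and -0.05.

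The genes whose log2 CPM followed Gtpbp10 most closely over the 12 libraries, by Pearson r among 9805 genes, were Bach1 (0.94), Dennd5b (0.93), Atxn7l3b (0.92) and Cdk12 (0.90). Libraries of a group share genotype and sex, so these values describe the pattern only. Of the first 5 genes by Pearson r, 0 were among the first 5 by Spearman's rho, and 1 (Bach1) was when WTF mouse 1091 was left out. Of the ribosomal protein genes Mrps28 (0.78), Mrpl24 (0.72) and Mrpl27 (0.66) were the most alike and Mrpl53 (-0.86), Mrpl36 (-0.73) and Mrpl33 (-0.72) the least. By Spearman's rho these were 0.73, 0.76 and 0.35 for the former and -0.50, -0.75 and -0.76 for the latter, so the order within both sets changed. Without mouse 1091 the Pearson r was 0.80 for Mrps28, 0.53 for Mrpl24, 0.48 for Mrpl27, -0.79 for Mrpl53, -0.60 for Mrpl36 and -0.74 for Mrpl33. Of the 74 compared, 6 had an r above 0.5 (8.11%), against 13.1% of all genes, 12 had an r below -0.5 (16.2%), against 11.4%, and the median r was -0.07 against -0.01.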

How the data were processed

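Liver RNA from 12 mice, 3 of each sex and genotype at ZT10, was counted with the Lexogen QuantSeq 3′ mRNA kit. The labels say that RNA of 3 mice was pooled, whereas the methods and the design text describe individual livers, so each library was taken as 1 mouse and p-values measure the spread between these libraries. The authors trimmed, mapped and counted reads in the BaseSpace environment of Illumina, and the deposited values are raw counts per gene symbol. The submitters' processing notes name STAR, DESeq and mm10. The sources used here give no versions, annotation or strand setting. No molecular identifiers are described, so depth is given as read counts.

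Counts were tested with edgeR 4.0.16 in R 4.3.3 (filterByExpr, then TMM factors and a two-sided quasi-likelihood test, with Benjamini-Hochberg adjustment over all genes tested and a threshold of 0.05), with DESeq2 1.42.0 and limma-voom (limma 3.58.1) as alternatives. The SE of a fold change was taken from its test statistic. CPM levels used the TMM factors of the fit of all 4 groups, whose library totals are over the rows passing the filter. That choice was made after the levels had been seen with totals over all rows, because it is the scaling of the fit, and the levels under both are compared in the closing section. Further alternatives were RLE factors, library totals alone, leaving out Rn45s, looser and stricter count filters, a GC offset, all 4 groups in one fit, a term for sex and leaving out each mouse. Log2 CPM used a prior count of 3. Rows of the 25 symbols that had been turned into dates stayed in the totals. Scripts were tested on simulated data with 200 genes set to a log2 fold change of 2. There edgeR recovered 83.5% of these in females, 90.5% in males and 55% for the difference between the sexes. Of its calls 7.22%, 5.73% and 1.79% were false. Coordinates and promoters are RefSeq's on GRCm38.p6, and the GC content of transcript ends is from GENCODE M1 transcripts.

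The members and the gene lists were chosen with earlier results of these data known. Genes were named by a rule: in each sex and for the difference between the sexes the 5 largest rises and falls among members with a mean of at least 10 CPM, 3 in each direction for the other comparisons, members called by edgeR or DESeq2, the 5 highest and 3 lowest, members chosen by role, and for the other lists the genes called or of smallest p. Of the 5 genes most like Gtpbp10, 1 is not reported here.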

Additional observations from a re-analysis of the deposited data

Results flagged for a closer look

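For Mrps14 the log2 change of females less that of males was 1.22 by DESeq2 (adjusted p of 0.0179) and 1.21 by edgeR (adjusted p = 0.102). KO mice were above all wild type mice in females and below all in males. Groups apart in opposite directions were seen for 1.31% of all genes, a share near that of 1 in 74 members. Mrpl33 differed between the sexes by -1.10 by DESeq2 (adjusted p of 0.0310), with a fall in females and overlapping groups in males. For Gtpbp10 the difference was 3.74 on the log2 scale, with the groups apart in opposite directions. It was not tested, because the gene was chosen for this difference.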

How the results depend on the processing

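No paired analysis was possible because the mouse numbers in the labels are not shared between groups. The count of genes passing edgeR's test was 0 in every comparison. Counts under alternatives are given with the share of all genes called. In females it became 1 with DESeq2 (Mrpl33, 3.7%), 2 with no filter beyond 1 count (Mrpl24 and Mrps28, 2.82%), 1 with all 4 groups in one fit (Mrpl33, 4.35%), 0 to 3 with 1 mouse left out (0% to 9.64%) and 2 with DESeq2 without WTF 1091 (12.2%). For the difference between the sexes it became 2 with DESeq2 (3.32%), 0 to 2 with 1 mouse left out (0% to 5.15%) and 2 with DESeq2 without WTF 1091 (9.58%). Between wild type females and males it became 1 with no filter (Mrps28, 3.17%), 1 with all 4 groups in one fit (Mrpl53, 5.15%), 0 to 3 with 1 mouse left out (0.451% to 7.73%) and 2 with DESeq2 without WTF 1091 (10.4%). In males (0% to 0.179%) and with both sexes combined (0% to 0.0151%) it stayed 0 under every alternative run.

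With 1 mouse left out the median log2 fold change ranged from -0.100 to 0.0787 in females, -0.0628 to 0.0592 in males, -0.0870 to 0.131 for the difference between the sexes and 0.0236 to 0.235 in the wild type comparison. DESeq2 without WTF 1091 gave 0.175 for the former difference and 0.00254 in the wild type. The cause was not tested. Of 742 values of named genes under alternatives, 728 kept their direction and side of the threshold and 14 passed it only under the alternative; 0 turned direction. Of the 5 genes most like Gtpbp10, 0 were among the first 5 by Spearman's rho and 1 without WTF 1091.

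The scaling of the levels was chosen after they had been seen with the other. With library totals over all rows in place of rows passing the filter, WTF 1091 was highest for 34 genes in place of 27, and its median excess over the other WTF mice was 0.33 in place of 0.24. The median over all genes moved with it, from -0.10 to -0.01, so that the gap between the members and all genes was 0.35 against 0.34. The summed level in WTF was 3981 ± 936 CPM in place of 3910 ± 755, KOF was above WTF without overlap for 8 genes in place of 10, and the 5 genes most like Gtpbp10 were the same 5. Fold changes and tests do not use these levels. DESeq2 without WTF 1091 was also added after the data were seen.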
